A study of Saccharomyces cerevisiae with 60 samples.

Results

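The COS, PAU, AAD and YRF1 gene families, which lie near the ends of budding yeast chromosomes were followed across strains and media. Members were the rows whose platform symbol was COS, PAU or AAD followed by a number, or began with YRF1-. This gave 48 of the 5524 genes measured: 11 COS copies, 23 PAU copies, 6 AAD copies, 7 YRF1 copies and COS111, which shares the letters of its name with the COS copies. In the R64 gene order, 11 of 11 COS copies, 18 of 23 PAU copies, 5 of 6 AAD copies and 7 of 7 YRF1 copies lay within 10 genes of a chromosome end. COS111 lay 103 genes from an end and was therefore counted as a member but kept out of the COS signal.

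The COS genes encode membrane proteins that help to sort other membrane proteins to the vacuole, and belong with the DUP240 genes to one larger family. The PAU genes encode serine-poor cell wall mannoproteins (seripauperins) known for their induction without oxygen and during wine fermentation, and the AAD genes encode putative aryl-alcohol dehydrogenases, of which some respond to oxidative stress through the transcription factor Yap1. The YRF1 genes encode a helicase within the Y' elements, repeats that border the telomeres and whose number differs between strains. Copies of a family resemble each other closely, so RNA of one copy can hybridize to the spot of another. A spot therefore cannot tell apart which copy was transcribed, how many copies a strain carries and how well they match the spotted DNA, and each family was described as 1 signal, the mean over its copies.

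The arrays carried 2 colours and held 9 strains of Saccharomyces cerevisiae: S288C, the laboratory reference strain, YPS163, and M5, M8, M13, M14, M22, M32 and M34. Each strain was grown exponentially in copper sulfate medium and in rich medium, with 3 arrays for each of the 18 groups, and each RNA was set against the pooled RNA of the 9 strains in the same medium. A further 6 arrays set the copper pool against the rich pool. The sources used here do not give the copper concentration, the make-up of the rich medium or the origin of the M strains. No label says whether replicates were separate cultures, so the tests measure only the spread between arrays, and their number limits the precision. On the strain arrays a value is log2 of strain over pool, and on the pool arrays log2 of copper over rich, after each array was centred on its median. A value of 1 thus stands for a doubled ratio and 0 for the array's middle gene.

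The direction of the ratios was read from the data. The strain arrays were taken as channel 1 over channel 2, since the mean ratio of the 9 strains to their own pool then lay nearer to 1: the median distance of its log2 from 0 was 0.11 in either medium, against 0.36 with the channels exchanged. The pool arrays were taken as the opposite, from the copper metallothionein gene CUP1-1, which then stood 5.87 ± 2.44 higher in the copper pool (SD, n = 6 arrays). Had either kind of array run the other way, its values below would change sign, and the strains named as high and low would change places. Spot position moved with the values: a running median over 15 by 15 spots of the inferred grid took up between 6.22% and 72.3% of an array's variance, with a median of 39.4%. Results over strains are therefore mostly given also after that running median was subtracted, called here position-corrected.

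The family signals differed in how far they spread over the strains. For COS in copper, the fitted means, adjusted for channel order, ran over 0.76, from 0.35 in M34 to -0.41 in YPS163, beside a pooled SD between arrays of 0.16. The low YPS163 mean leaned on COS1, at -2.36 there. The next lowest copy, COS7, stood at -0.85, and 4 of 11 copies lay above 0. M32 was close to YPS163 in copper, at -0.40. For COS in rich medium the fitted means ran over 0.89, from 0.41 in M5 to -0.48 in M32, beside a pooled SD of 0.25. The YRF1 range was 0.80 in copper, from 0.33 in S288C to -0.47 in M32 (pooled SD 0.30), and 1.07 in rich medium, from 0.59 in M5 to -0.48 in M32 (pooled SD 0.24). The PAU signal spanned 0.32 in copper and 0.34 in rich medium, beside pooled SDs of 0.14 and 0.34. The AAD signal spanned 0.28 and 0.51, beside 0.31 and 0.26. Set against the SD between arrays, the COS and YRF1 signals thus spread furthest, whereas PAU in rich medium and AAD in copper spanned about as much as 1 array SD. This order depends in copper on the centring: without it the ranges were 0.88 for COS, 0.83 for YRF1, 0.85 for AAD and 0.62 for PAU. These signals are descriptions and were given no test.

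**Figure D1:**
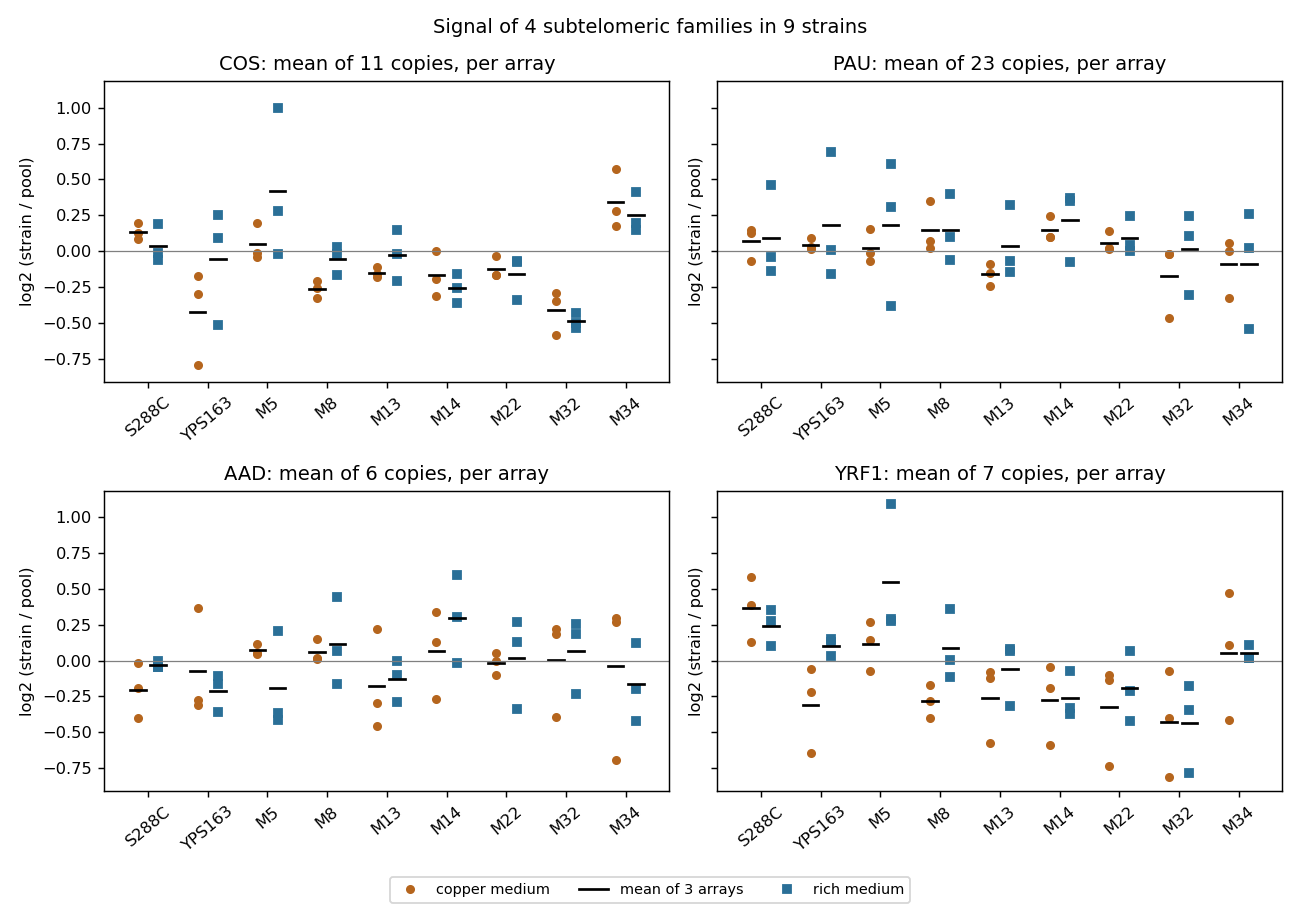
Signal of each family, the mean log2 (strain / pool) over its copies, on each of the 54 strain arrays (copper medium, circles; rich medium, squares), with the mean of the 3 arrays of a group as a bar. COS and YRF1 lie below 0 on all 6 arrays of M32 and of M14, and the PAU and AAD points of most strains straddle 0.

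Position correction left these ranges close to where they were for COS (0.80 in copper and 0.83 in rich medium) and YRF1 (0.79 and 1.07). The PAU ranges were then 0.30 and 0.28 and the AAD ranges 0.43 and 0.34. The signal of a strain lay on the same side of 0 in both media for 9 of 9 strains in COS, 8 in PAU, 7 in AAD and 7 in YRF1. After position correction these counts were 9, 5, 7 and 8. The media were compared on separate arrays against separate pools, but the fit shared 1 channel term and all arrays share the spot layout. The counts therefore do not set fully independent values side by side. Some fitted means also lay so near 0 that their side says little, such as AAD in M8 in copper (0.00) and YRF1 in M34 (0.01 in each medium).

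A family mean averages its copies, so its range cannot exceed the mean of their ranges. Single copies were therefore set beside all genes. The range of a COS copy over the 9 strains had a median of 1.42 in copper and 1.40 in rich medium, where the medians of all genes were 0.73 and 0.91. In copper 11 of 11 COS copies and 7 of 7 YRF1 copies had a range above the median of all genes, and 16 of 23 PAU and 5 of 6 AAD copies did. Rich medium gave 9 of 11 COS, 5 of 7 YRF1, 11 of 23 PAU and 3 of 6 AAD copies above that median. Position correction brought the median of all genes to 0.53 and 0.50 and the COS median to 1.24 and 1.08, with 11 of 11 copies above in both media. The corrected PAU medians, 0.57 and 0.54, lay near those of all genes.

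**Figure D2:**
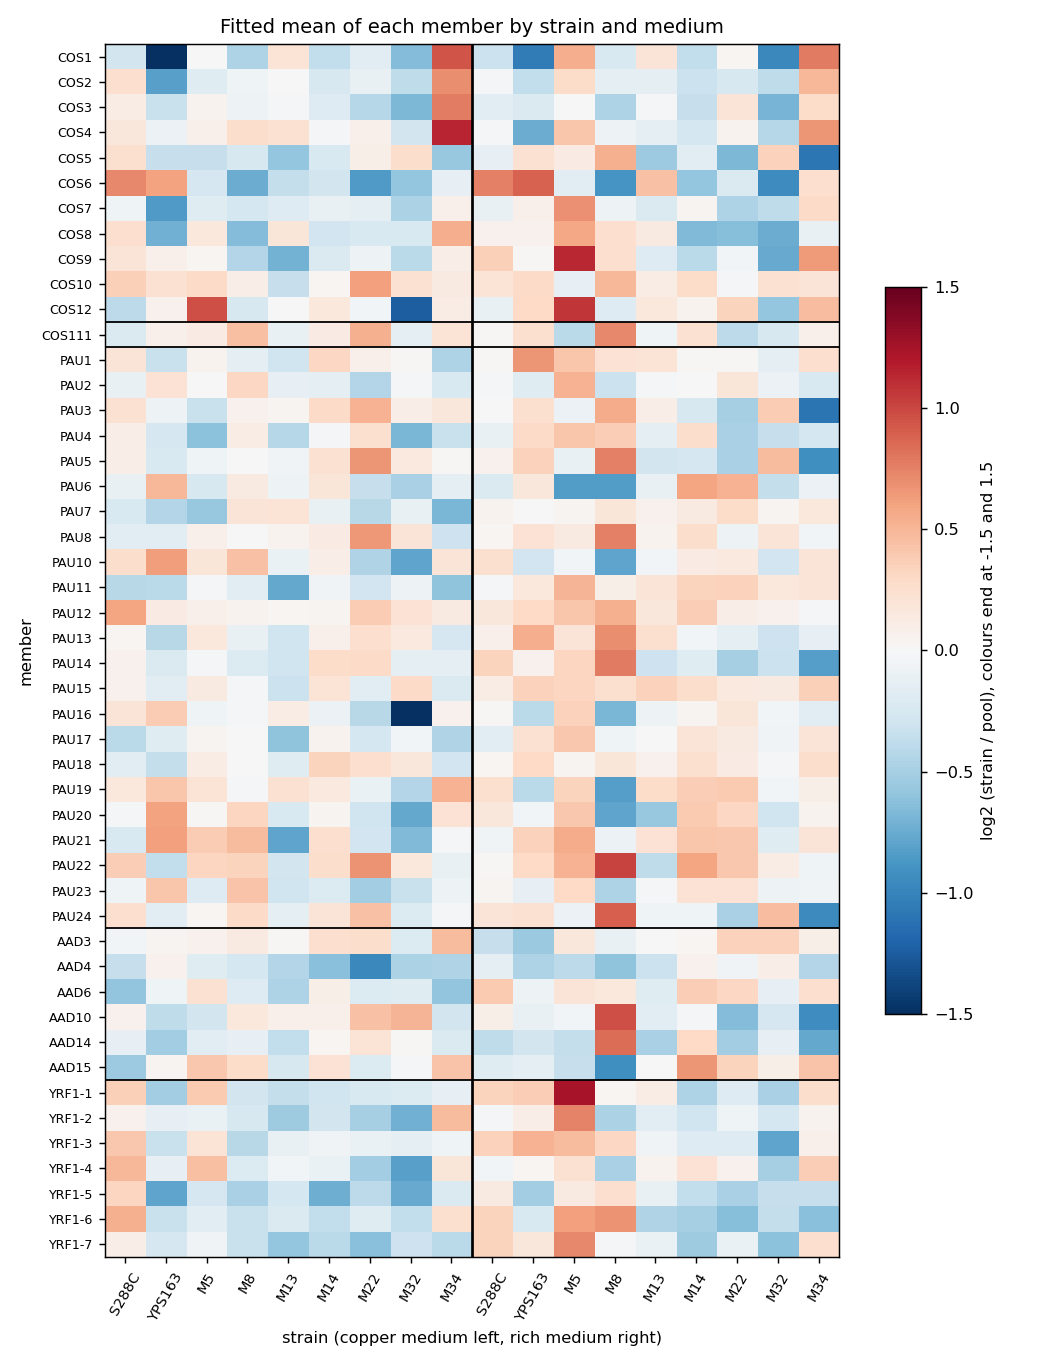
Fitted mean log2 (strain / pool) of the 48 members (rows, grouped by family) in the 9 strains in copper (left of the line) and rich medium (right), with colours ending at -1.5 and 1.5. COS1 is deep blue in YPS163, COS12 opposes M5 to M32 in both media, and the 7 YRF1 rows are blue throughout M32.

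Across the 9 strains in copper, 2 of 48 members passed the moderated F-test of limma after adjustment over all genes, where 1.45% of all genes passed. Both were COS copies, COS1 and COS12. In rich medium 1 of 48 passed, namely YRF1-1, where 1.63% of all genes passed. Position correction raised the counts to 7 members in copper (3.67% of all genes) and 6 in rich medium (2.72% of all genes). The 7 were COS1, COS4, COS8, COS12, YRF1-4, YRF1-5 and PAU21, and the 6 were COS1, COS4, COS6, COS9, YRF1-6 and PAU22. At an unadjusted p of 0.05, 7 members (14.6%) passed in copper, where 5.90% of all genes did, and 13 (27.1%) in rich medium, where 11.9% did. Each strain was also set against the mean of the other 8 in its medium. These 18 contrasts gave 4 calls among the members, 2 higher and 2 lower, where 0.266% of all contrasts of all genes were called, and 17 calls after position correction, where 0.558% were.

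COS1, the copy beside YRF1-6 in gene order, had the widest range of the members over strains in copper. Its values in YPS163 in copper were -1.46, -3.87 and -1.98 on the 3 arrays. The 24 arrays of the other strains in copper lay above these 3, the nearest at -1.41 in M32. In M34 in copper the arrays read 1.24, 0.73 and 0.64. The fitted range over strains was 3.30 (adjusted p = 0.0014, limma F-test). YPS163 fell by 2.27 (SE 0.36) against the other 8 (adjusted p = 2.31e-04 in limma), in a contrast where 0.0905% of all genes were called lower. That contrast passed in 42 of 42 alternatives, with adjusted p up to 0.0458. The F-test lost its call without replicate 1 of every strain (adjusted p = 0.458 in limma) and without the YPS163 copper array at -3.87 (range 2.66, adjusted p = 0.0523 in limma).

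In rich medium the COS1 arrays of YPS163 disagreed. They read -1.16, 0.82 and -3.05, so 1 of the 3 lay above 0, and COS1 did not pass the F-test over strains there (adjusted p = 0.155 in limma). M34 read 0.84, 0.74 and 0.51 in rich medium, near its copper values. M32 read -0.33, -1.55 and -1.26. After position correction M34 was higher than the other 8 in copper by 1.53 (adjusted p = 0.0048 in limma), against 1.45 and an adjusted p of 0.0781 before.

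COS12 separated M32 from M5. In M32 in copper its 3 arrays read -1.30, -1.75 and -0.69, and in M5 in copper 1.66, 0.93 and 0.27. These 2 strains did not overlap, although S288C reached down to -0.78. The fitted range was 2.20 (adjusted p = 0.0096 in limma). M32 fell by 1.32 (SE 0.26) against the other 8 (adjusted p = 0.0135 in limma), in a contrast where 0.0905% of all genes were called lower. In rich medium M32 read -0.90, -0.42 and -0.46 and M5 read 1.95, 1.01 and 0.31, the same order, with no call before position correction. Both M5 contrasts were called after it, at 1.00 in copper (adjusted p = 0.0241 in limma) and 0.91 in rich medium (adjusted p = 0.0434 in limma). The M32 call was lost without M32 copper replicate 1 (-1.26, adjusted p = 0.463 in limma), without replicate 2 (-1.07, adjusted p = 0.114) and without centring (-1.09, adjusted p = 0.376), with differences of similar size. The COS12 F-test was lost without M5 copper replicate 1 (adjusted p = 0.0672 in limma) and without M32 copper replicate 1 (adjusted p = 0.0676) or 2 (adjusted p = 0.104).

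COS4 stood highest in M34. Its copper arrays there read 1.80, 1.02 and 0.37, and its rich medium arrays 0.91, 0.39 and 0.43. The copper values overlapped those of M8, M22 and YPS163, of which YPS163 spread from -1.18 to 0.77. M34 was higher than the other 8 in copper by 1.09 (SE 0.23, adjusted p = 0.0189 in limma), where 0.181% of all genes were called higher. Of 42 alternatives, 33 kept this call. It was lost without centring (adjusted p = 0.152 in limma) and without the channel term (adjusted p = 0.136 in limma). Leaving out replicate 1, 2 or 3 of every strain also ended it, as did leaving out replicate 1 or 3 with the running median subtracted. The call was gone without M34 copper replicate 1 (0.87, adjusted p = 1.00 in limma) and without replicate 2 (adjusted p = 0.274 in limma).

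The other COS copies gave no call before position correction. COS9 read 2.16, 0.74 and 0.27 in M5 in rich medium and -0.92, -0.48 and -0.63 in M32, and was called in both after correction. The corrected differences were 1.15 (adjusted p = 0.0260 in limma) and -1.06 (adjusted p = 0.0375). COS6 showed arrays far apart within a group: 0.59, 1.69 and 0.03 in S288C in copper, and 0.10, 2.25 and 0.06 in rich medium. The COS means of M34 and M32 kept their sign in both media without centring. In M34, 9 of 11 COS copies had a fitted mean above 0 in each medium, and in M32 2 of 11 did. COS111 ranged over 0.75 in copper and 1.12 in rich medium and passed no test.

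**Figure D3:**
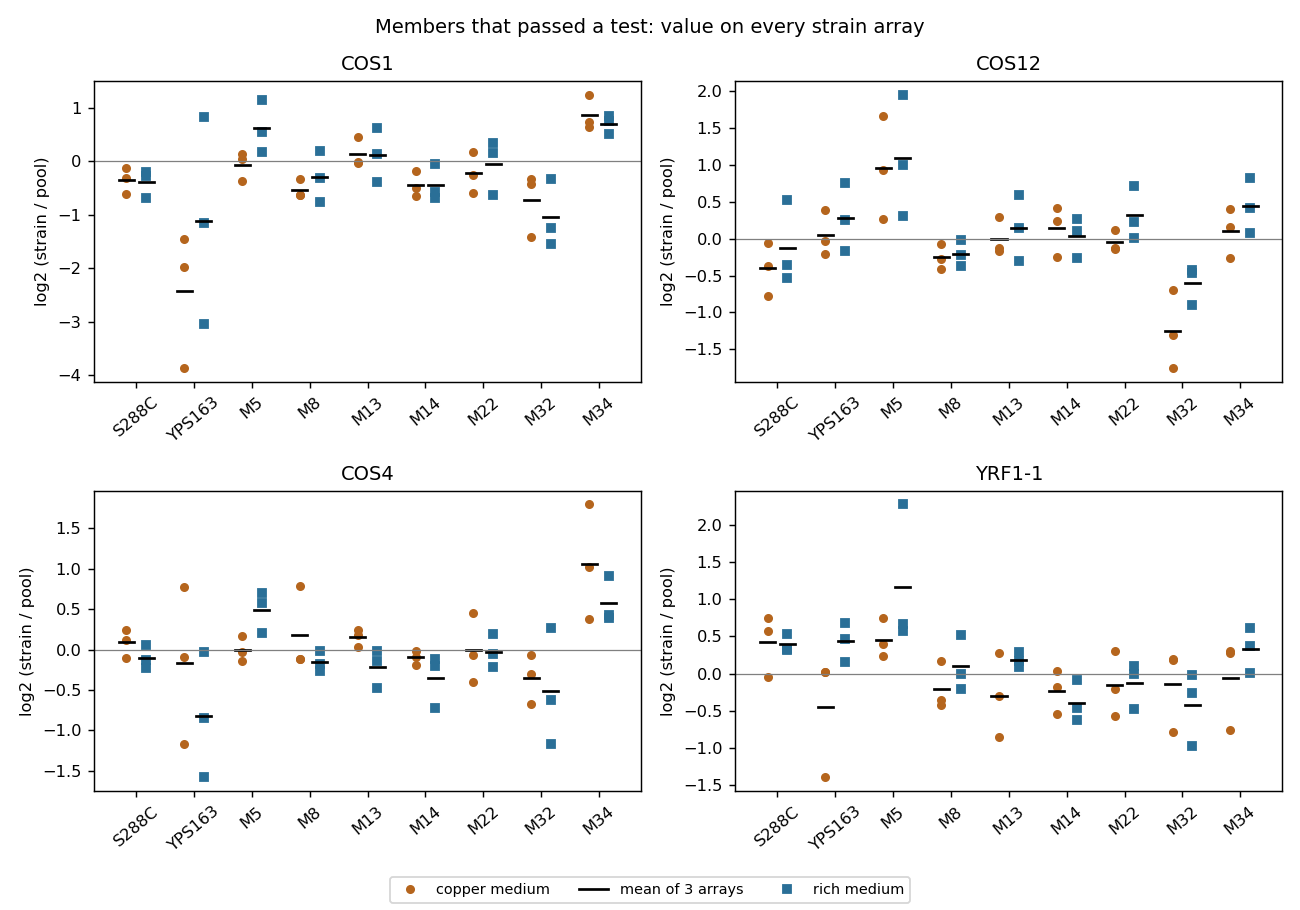
Log2 (strain / pool) of COS1, COS12, COS4 and YRF1-1 on each strain array (copper medium, circles; rich medium, squares), with bars for the mean of 3 arrays. The 3 copper arrays of YPS163 lie below all others in copper for COS1, and the M5 rich medium mean of YRF1-1 is drawn up by 1 array at 2.28.

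In several strains the YRF1 copies lay on the same side of 0, but not in all. In M8 in rich medium YRF1-6 stood at 0.67 and YRF1-4 at -0.49. In M32 the family signal was -0.82, -0.40 and -0.07 on the copper arrays and -0.79, -0.18 and -0.34 in rich medium. All 6 arrays lay below 0, and 0 of 7 copies had a fitted mean above 0 in either medium. The 6 arrays of M14 also lay below 0, with 0 of 7 copies above 0 in copper and 1 in rich medium. In M5 in rich medium the signal read 1.09, 0.27 and 0.29, with 7 of 7 copies above 0. In S288C in copper it read 0.13, 0.58 and 0.39, with 7 of 7 copies above 0, but without centring the mean of these arrays was -0.17, so this direction depends on the centring. The means of M32 in both media and of M5 in rich medium kept their sign without centring, with arrays scaled to one spread, and with both corrections for position. In copper, 0 of 7 copies had a fitted mean above 0 in YPS163, M8, M13, M14 and M22 as well, and the family means of these strains stayed below 0 without centring. However, the mean ratio of the 9 strains to their pool was 0.89 for YRF1 in copper, where 1 would match the pool. The family thus lay low there over the strains as a whole.

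YRF1-1 was the called copy. Its rich medium arrays read 2.28, 0.57 and 0.66 in M5, which overlapped YPS163 (up to 0.68) and M34 (up to 0.62). M5 stood 1.24 higher than the other 8 (SE 0.26, adjusted p = 0.0309 in limma), where 0.0724% of all genes were called higher. Without the channel term the difference was 1.11 and the call was lost (adjusted p = 0.160 in limma). The difference rested on the array at 2.28: without it the value was 0.63 (adjusted p = 1.00 in limma). The F-test over strains (range 1.73, adjusted p = 0.0333 in limma) passed in 26 of 42 alternatives and was lost on position correction (adjusted p = 0.0795). The same array held the highest COS signal of M5, 0.99, and the highest COS9 and COS12 values there. After correction YRF1-4 and YRF1-5 were higher in S288C in copper by 0.75 (adjusted p = 0.0157 in limma) and 0.77 (adjusted p = 0.0018). Before correction their adjusted p values in limma were 0.746 and 0.333. The corrected values are also centred, and the direction of the S288C signal in copper depends on the centring. Corrected values of YRF1-5 and YRF1-6 were called higher in M5 in rich medium, by 0.67 and 0.85. YRF1-3 was called lower in M32 in rich medium, by a difference of -0.75.

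No PAU copy passed a strain test before position correction, with 1 of 23 at an unadjusted p of 0.05 in copper and 4 in rich medium, beside 5.90% and 11.9% of all genes. The widest range in copper was that of PAU16, 1.91, which 1 array led: in M32 it read -4.38, 0.28 and -0.21. After correction PAU16 was called lower in M32 in copper (-1.18, adjusted p = 0.0376 in limma), with the same array at -3.56 and the others at 0.26 and -0.10. PAU21 was then called lower in M13 in copper (-0.77, adjusted p = 0.0492 in limma). The widest uncorrected range in rich medium was that of PAU24, 1.85. Its M8 arrays read 0.53, 1.67 and 0.55 and its M34 arrays -2.18, -0.40 and -0.20. The running median at its spot averaged 0.74 in M8 and -0.77 in M34, and the corrected means were 0.18 and -0.16. Most of what PAU24 showed was thus shared by the spots around it.

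AAD10 resembled PAU24 in this respect. It had the widest AAD range in rich medium, 1.90, with 0.38, 2.01 and 0.84 in M8 and -2.03, -0.54 and 0.10 in M34. Its corrected means there were 0.38 and 0.03. AAD4 had the widest in copper, 1.03, with -1.73, -0.40 and -0.28 in M22. None of the 6 AAD copies passed a strain test before or after correction, and at an unadjusted p of 0.05 the F-tests found 0 in either medium.

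Whether copies of a family vary together was examined over the 54 strain arrays with Pearson's r for each pair, as a description, since arrays of one strain share their source and all arrays share the spot layout. For YRF1 the median r of 21 pairs was 0.36, and position correction raised it to 0.60, with 21 of 21 pairs above 0 and the lowest at 0.33. For PAU the median r of 253 pairs was 0.15 and became 0.25. The COS medians were 0.18 and 0.22 over 55 pairs, and the AAD medians -0.02 and 0.17 over 15 pairs. The YRF1 copies, 2 genes or fewer from an end, thus had the highest median r of these families once position was removed. Within COS some copies varied as closely as those of YRF1: the 6 pairs among COS1, COS2, COS3 and COS4, singled out after their values were seen, had corrected r from 0.59 to 0.74.

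The uncorrected agreement was lower for spots farther apart. PAU pairs within 24 columns of the grid had a median r of 0.55 and pairs over 48 columns apart one of -0.31. After correction the PAU values were 0.28 and 0.21. YRF1 pairs went from 0.60 near (9 pairs) and 0.01 far (3 pairs) to 0.68 and 0.57. COS pairs kept more of the gap, from 0.29 near (27 pairs) and -0.26 far (7 pairs) to 0.27 and -0.02. The far COS pairs all held COS5 or COS8, so distance cannot be told apart there from which copies were compared. AAD pairs went from 0.25 near (3 pairs) and -0.10 far (6 pairs) to -0.01 and -0.04. Some members of different families that lie side by side also lost agreement. AAD10 and COS5, 3 spots and 5 genes apart, had r = 0.73 before and 0.19 after correction. PAU13 and COS8, 1 spot and 2 genes apart, went from 0.46 to 0.08. PAU11 and COS12, also 1 spot and 2 genes apart, went from 0.36 to 0.04. These pairs are close both on the array and on the chromosome, so the 2 kinds of distance cannot be told apart there. By contrast YRF1-4 and YRF1-5, next to each other in gene order but 48 columns apart in the same grid row, went from -0.08 to 0.60. Between families the highest median was that of COS with YRF1, 0.23 before and 0.29 after correction.

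**Figure D4:**
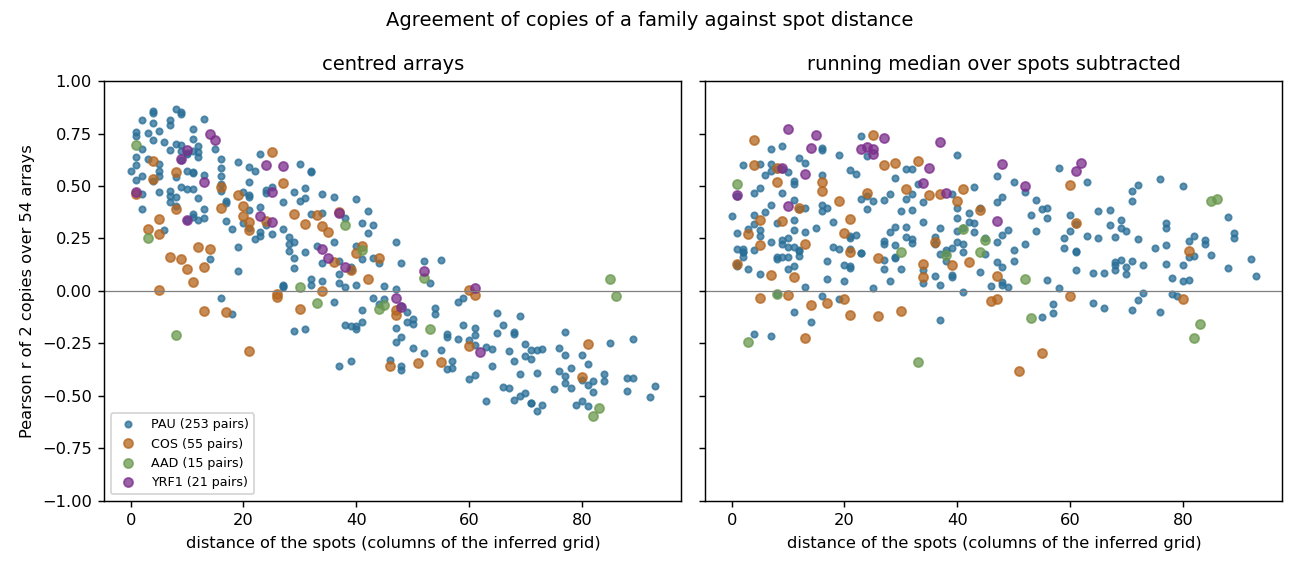
Pearson's r of each pair of copies of a family over 54 strain arrays against the distance of their spots in grid columns, for centred arrays (left) and after subtraction of the running median (right). On the left most pairs at long distances have a lower r than those at short ones, and on the right the 21 YRF1 pairs lie between 0.33 and 0.77 at short and long distances alike.

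Between the media, compared directly on the 6 pool arrays, none of the 48 members passed the limma test, where 1.41% of all genes passed. At an unadjusted p of 0.05, 3 members (6.25%) passed, all of them PAU copies, where 14.6% of all genes did, and after position correction 0 members passed the adjusted test, where 1.59% of all genes did. The fitted copper minus rich values of the families were 0.05 for COS, 0.01 for PAU, 0.05 for AAD and -0.13 for YRF1, and 0.00, -0.04, 0.05 and -0.08 after position correction. The strain by medium interaction called 0 members and 0% of all genes, with 3 members (6.25%) at an unadjusted p of 0.05, where 4.72% of all genes passed.

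The largest value among the members in the pools was that of PAU18, -0.67 (SE 0.16, adjusted p = 0.0678 in limma), or -0.47 after position correction (adjusted p = 0.124). Its 6 arrays read -1.48, 0.00, -1.22, -0.09, -0.28 and 0.43. The 2 low arrays are those with the copper pool in channel 1. The largest COS value was that of COS10, -0.34 (SE 0.16), the largest AAD value that of AAD4, 0.30 (SE 0.25), and the largest YRF1 value that of YRF1-7, -0.31 (SE 0.19).

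Channel order moved with the pool values of AAD and YRF1. The AAD signal read -0.07, 0.59, -0.78, 0.10, 0.64 and 0.77 on the 6 arrays. Its mean was -0.43 with the copper pool in channel 1 (n = 2) and 0.53 with the copper pool in channel 2 (n = 4), and these arrays did not overlap. The YRF1 signal read -0.24, 0.17, -0.70, -0.13, 0.10 and 0.69, with means of -0.47 and 0.21. Over the members the median absolute channel effect was 0.25, against 0.17 for the copper effect, and the channel effect passed for 6 members (12.5%), where it passed for 17.2% of all genes. On the strain arrays in copper, replicate 1 of each strain carried the strain in channel 2 and the other 2 in channel 1, so channel order and replicate number cannot be told apart there. The rich medium arrays followed the same order except in M5, where replicate 3 also carried the strain in channel 2.

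**Figure D5:**
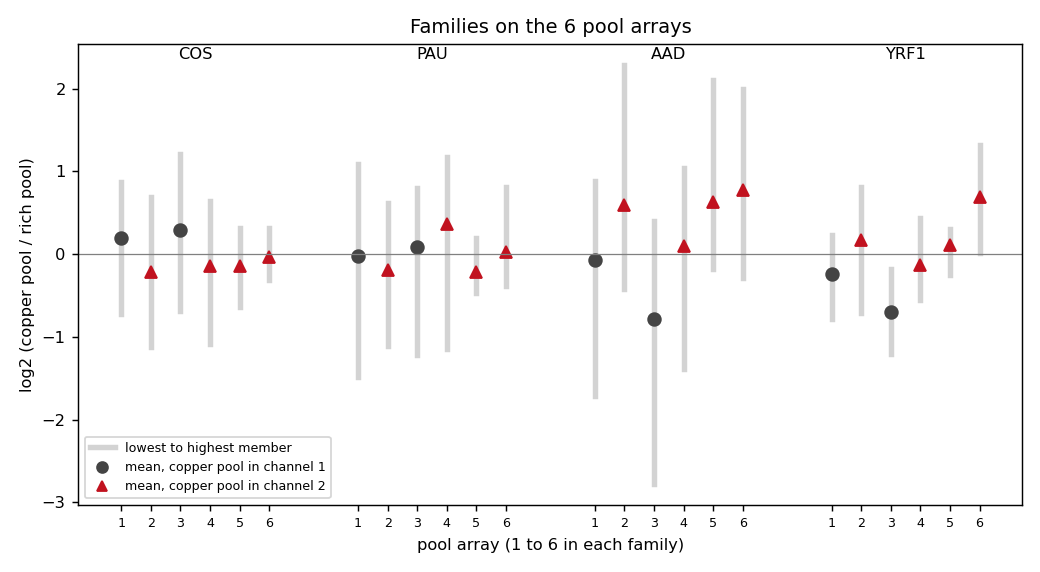
Mean log2 (copper pool / rich pool) of each family on the 6 pool arrays, with grey bars from the lowest to the highest member. The AAD means with the copper pool in channel 1 (circles) lie below those with it in channel 2 (triangles), and the COS means lie the other way round.

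Genes related to the families gave a few more calls. The 16 measured genes linked to growth without oxygen or resembling PAU in their product gave 0 calls in the pools and 0 in copper. In rich medium 2 passed (12.5%), where 1.63% of all genes did. These were TIR1 and TIR2, which encode cell wall mannoproteins. TIR1 ranged over 2.73 (adjusted p = 0.0032 in limma), highest in M8 and lowest in M32, and TIR2 over 2.74 (adjusted p = 0.0156), highest in M32 and lowest in M14, a call that position correction ended (adjusted p = 0.0618). After correction 3 of these 16 genes passed in copper (18.75%, beside 3.67% of all genes) and 1 in rich medium (6.25%, beside 2.72%). The 10 DUP240 relatives of COS passed neither the pool test nor the strain tests. Of 17 aldo-keto reductases and Yap1 targets, 5 were called higher in the copper pool, where 65 of all 5524 genes were. They were led by GRE3, an aldose reductase (1.43, SE 0.17, adjusted p = 7.62e-04 in limma), YDL124W, an alpha-keto amide reductase (1.06, SE 0.16), and AHP1, a thiol peroxidase (1.14, SE 0.19). After position correction 1 of the 17 passed over strains in copper (5.88%, beside 3.67% of all genes) and 0 in rich medium. None of the 6 AAD copies was among the genes called there. The 20 genes of telomere upkeep and silencing gave 0 calls in the pools and over strains.

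The genes near chromosome ends that are not members were set beside the families. Of 236 such genes within 10 genes of an end, 5 passed over strains in copper and 5 in rich medium, 2.12% in each. Of all genes 1.45% passed in copper and 1.63% in rich medium. In the copper pool 3 of the 236 were called higher, beside 65 of all 5524 genes. After position correction 18 passed in copper (7.63%) and 13 in rich medium (5.51%), beside 3.67% and 2.72% of all genes. Their median range over strains was 0.86 in copper and 1.04 in rich medium. The COS medians, 1.42 and 1.40, lay above these values, and the PAU medians, 0.89 and 0.91, lay on either side of them.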

How the data were processed

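Values were the deposited log2 ratios of 60 two-colour arrays with 6144 rows. That they are log2 was read from the values: 2 to the power of the value had 3 decimals for 100% of ratios under 10, within 0.00001. Per the labels, RNA was extracted with hot phenol, labelled through amino-allyl dUTP with Cy3 or Cy5, and scanned on a GenePix 4000A instrument, with spots read by version 4.0 of its software and bad ones marked from the picture. The sources used here name neither a normalization nor the dye of each channel. Array medians ran from -0.77 to 1.16, so each array was centred on its median, turned to strain over pool or copper over rich, and rows of one gene were averaged.

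Names came from the platform's gene table, which gives 1 gene for 5541 rows, several for 0 and none for 603, and 5536 rows matched the R64 gene table, used for names and gene order. The members and gene lists were chosen with earlier results of these data known. Named members are those that passed a test and, in each family, those with the widest range over strains or the largest pool value. Members called after position correction, those beside a spot neighbour, and COS111 were named after their values were seen.

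limma 3.58.1 fitted 18 group means with a channel term over the 54 strain arrays, and a mean with a channel term over the 6 pool arrays, with Benjamini-Hochberg adjustment over 5524 genes at 0.05. It was tested on simulated data. The spot grid was inferred as 16 blocks of 16 rows by 24 columns. Alternatives were no centring, equal array spread, no channel term, robust moderation, running median, block centring, single rows, a replicate block, single media and leaving out arrays. PAU9 and YRF1-8 were not analysed here.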

Additional observations from a re-analysis of the deposited data

Results flagged for a closer look

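On the 6 pool arrays, COS8 read -0.84 on array 4, where the other 5 lay between -0.15 and 0.22, and PAU16 read -0.57 on array 2, where the other 5 lay between 0.07 and 0.22. After position correction array 4 still stood at -0.83 for COS8, whereas for PAU16 array 2 read -0.07 and the lowest was array 1 at -0.45. In each case 1 uncorrected array stood far from the rest by Dixon's test. That test was applied to 25 sets of pool values, and chance marks about 1 set in 20.

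The YRF1 signal of YPS163 was lower in copper than in rich medium by a difference of -0.41: its copper arrays read -0.64, -0.22 and -0.06, and its rich medium arrays 0.15, 0.03 and 0.13. Every copper array lay below 0 and every rich medium array above it, which was looked for in 36 pairs of family and strain. The difference was not tested, and each medium has its own pool. After position correction the third copper array read 0.02 and the second rich medium array -0.01.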

How the results depend on the processing

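Over the counts of called members and the family signals, 50 of 516 values under alternatives moved by more than 1.5 times the reported count or 1 SD of the reported signal, and the others did not. Members called over strains in copper (2) became 7 after each array was scaled to one spread, 7 with the running median subtracted, 6 with block centring and 4 with the copper arrays alone. Members called in rich medium (1) became 0 without centring, with equal spread, without the channel term and with the rich medium arrays alone, and 6 with the running median or block centring. Calls of a strain against the other 8 (4) became 1 without centring, 7 with equal spread, 2 without the channel term, 17 with the running median and 12 with block centring. With the replicate number as a block in place of the channel term, the counts were 2 in copper, 4 in rich medium and 6 contrasts. Same-numbered arrays deviated together more than others, with a median correlation of 0.24 in copper (-0.13 for other numbers) and 0.20 in rich medium (-0.09). Only 81 and 67 of 108 pairs were above 0.1, so the numbers were not taken as a pairing, and number and channel order cannot be told apart in copper. Without centring the range in copper was 0.62 for PAU and 0.85 for AAD. Leaving out arrays gave 0 to 2 members in copper (0 without replicate 1 of every strain), 0 to 4 in rich medium, 1 to 12 contrasts and a YRF1 range in rich medium from 0.57 (without replicate 1 of every strain) to 1.41 (without replicate 2). The copper count was 1 without M32 replicate 1 or 2 or YPS163 replicate 2. The rich medium count was 0 without replicate 1 of M5 or M22 or replicate 2 of M14, and 2 to 4 without M5 replicate 2 or 3, M32 replicate 1 or 2 or any of the YPS163 arrays. That range was 0.76 without M5 rich medium replicate 1 and 1.32 without replicate 2. With the running median subtracted as well, chosen after seeing the data, leaving out replicate numbers 1, 2 and 3 in turn gave 1, 2 and 4 members in copper and 1, 11 and 4 contrasts, and 2 members in rich medium without number 2. The COS range in copper was then 0.98 without number 3, and the YRF1 range in rich medium 0.57 without number 1 and 1.38 without number 2. YRF1-1 in M5 in rich medium, 1.24 as reported, was -0.012 without replicate 1 of every strain and with the running median subtracted; the cause was not tested. Leaving out a pool array kept 0 members called. Signal over background is not in the deposited values, so its limit was not examined.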
